A study of Mus musculus with 28 samples.

Results

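The 10 sham-operated, vehicle-gavaged mice of the series, numbered 901 to 910, were described in the order of their numbers. They were chosen by title alone and are 10 of 28 libraries, and each gene's level was related to mouse number as a continuous variable. All were male C57BL/6 mice on a diet with 1% hydroxyproline, a precursor of oxalate, and 0.5% calcium. Sham surgery was done when they were 6 weeks old and a single gavage of culture medium followed on day 7. They were perfused with buffered saline under ketamine/xylazine anaesthesia, and each gave 1 library of ventricular myocardium. The other 18 libraries come from mice on the same diet and are used here for comparison only. They are 6 with 5/6 nephrectomy and vehicle (CKD-vehicle, a model of chronic kidney disease), 5 with a sham operation and the oxalate-degrading gut bacterium Oxalobacter formigenes (sham-Oxf), and 7 with nephrectomy and the bacterium (CKD-Oxf). No label gives a time or order of collection. The library index in the library names runs from 73 for mouse 901 to 82 for mouse 910, so mouse number and library order cannot be told apart in these mice.

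The number was examined with earlier results of these data known, among them the clock pattern of these samples. The heart carries a circadian clock. In its core loop ARNTL (also called BMAL1) pairs with CLOCK or NPAS2, binds E-boxes and drives Per, Cry, Nr1d, Ciart and Dbp. PER and CRY proteins repress that pair, NR1D1 and NR1D2 repress Arntl, and the ROR receptors activate it. The PAR bZIP factors DBP, TEF and HLF pass the rhythm on through D-boxes, where NFIL3 acts as their repressor. Arntl and its partners peak at another time of day than Dbp and the Per genes.

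Promoter sequence shows these elements in some of the clock genes whose values are given below. The clock lists hold 19 genes, of which 17 had an entry in the RefSeq promoter table (build GRCm38.p6). In the 250 bases before the start, the E-box CACGTG, which is its own reverse complement, was found in 5 of the 17 genes (Per1, Cry1, Ciart, Bhlhe41 and Tef) against 6.86% of all genes in the table. The D-box, searched as TTATGTAA, TTACATAA or TTACGTAA so that both strands were covered, was found in Per3 alone against 1.095% of all genes. The core AGGTCA of sites for ROR and REV-ERB receptors, searched on both strands, was found in 4 of them (Clock, Per1, Nr1d2 and Nfil3) against 15.76% of all genes. A match is a description of the letters in this window only. The stretches below carry the elements of 3 genes with positive slopes over mouse number, of which Tef passed the test below and Ciart and Per3 did not, 5′ to 3′ on the strand of the gene, with the motif in capitals. For Tef, 30 bases around the motif are shown, and for Ciart the stretch stops where the annotated gene begins.
Tef, E-box, chr15:81802534-81802563, + strand: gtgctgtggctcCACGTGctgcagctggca
Ciart, 3 E-boxes, chr3:95882252-95882478, - strand: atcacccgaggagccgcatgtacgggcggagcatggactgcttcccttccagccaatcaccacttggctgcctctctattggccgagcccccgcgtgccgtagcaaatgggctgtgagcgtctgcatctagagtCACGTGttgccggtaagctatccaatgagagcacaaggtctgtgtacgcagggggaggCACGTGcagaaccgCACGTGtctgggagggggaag
Per3, 2 D-boxes, chr4:151044666-151044915, - strand: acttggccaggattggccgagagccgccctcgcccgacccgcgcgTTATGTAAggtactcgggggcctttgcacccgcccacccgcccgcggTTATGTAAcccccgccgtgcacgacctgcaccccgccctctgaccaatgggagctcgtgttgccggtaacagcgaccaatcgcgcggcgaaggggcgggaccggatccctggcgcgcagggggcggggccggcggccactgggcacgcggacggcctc
The Tef motif begins 127 bases before the RefSeq start, but lies inside the gene as GENCODE annotates it (chr15:81802421-81826863). The motifs of Ciart begin 116, 58 and 44 bases before it, and those of Per3 205 and 158 bases before it.

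The 10 libraries held 22.3 to 51.28 M counts (M for mega) (median 38.3) and 30172 to 33473 detected genes. The 7SL RNA copies took 2.295% to 19.9% of the counts and mitochondrial genes 15.59% to 28.11%. All 9 genes on the ventricular cardiomyocyte list were present, led by Myh6 at 11120 to 22100 CPM, the counts scaled to a common library size. Others on it varied more, such as Myl2 at 222.1 to 1927 CPM and Myl3 at 109.3 to 1017. The summed ventricular list ran from 19500 to 38250 CPM. Atrial markers varied more as a sum, from 248.4 CPM in mouse 903 to 3071 in mouse 901. Bmp10, a gene of atrial muscle, ordered the hearts otherwise. It was at 0.0284 CPM in mouse 904, at 0.107 in mouse 908, and at 41.3 to 487.7 in the other 8. The atrial sums of mice 904 and 908 were 691.2 and 991.6 CPM. In mouse 906 the 8 skeletal muscle markers summed to 491.5 CPM against 2.286 to 4.803 in the others, and the 4 genes that passed are given below also without that heart. Of 21 such library measures none was related to mouse number after adjustment over 24 relations (permutation test, 100000 draws, two-sided, n = 10). Among these measures the smallest p belonged to the neutrophil markers (Pearson's r = 0.742, permutation p = 0.013, adjusted 0.0779), a sum that is mostly Csf3r. The rest of the 24 relations are the log2 levels of Dbp, Tef and Arntl. Their p-values were smaller, which lowers the adjusted values of the library measures. Library size gave r = 0.323 (permutation p = 0.367) and the 7SL share r = -0.0319 (p = 0.931), before adjustment.

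**Figure D1:**
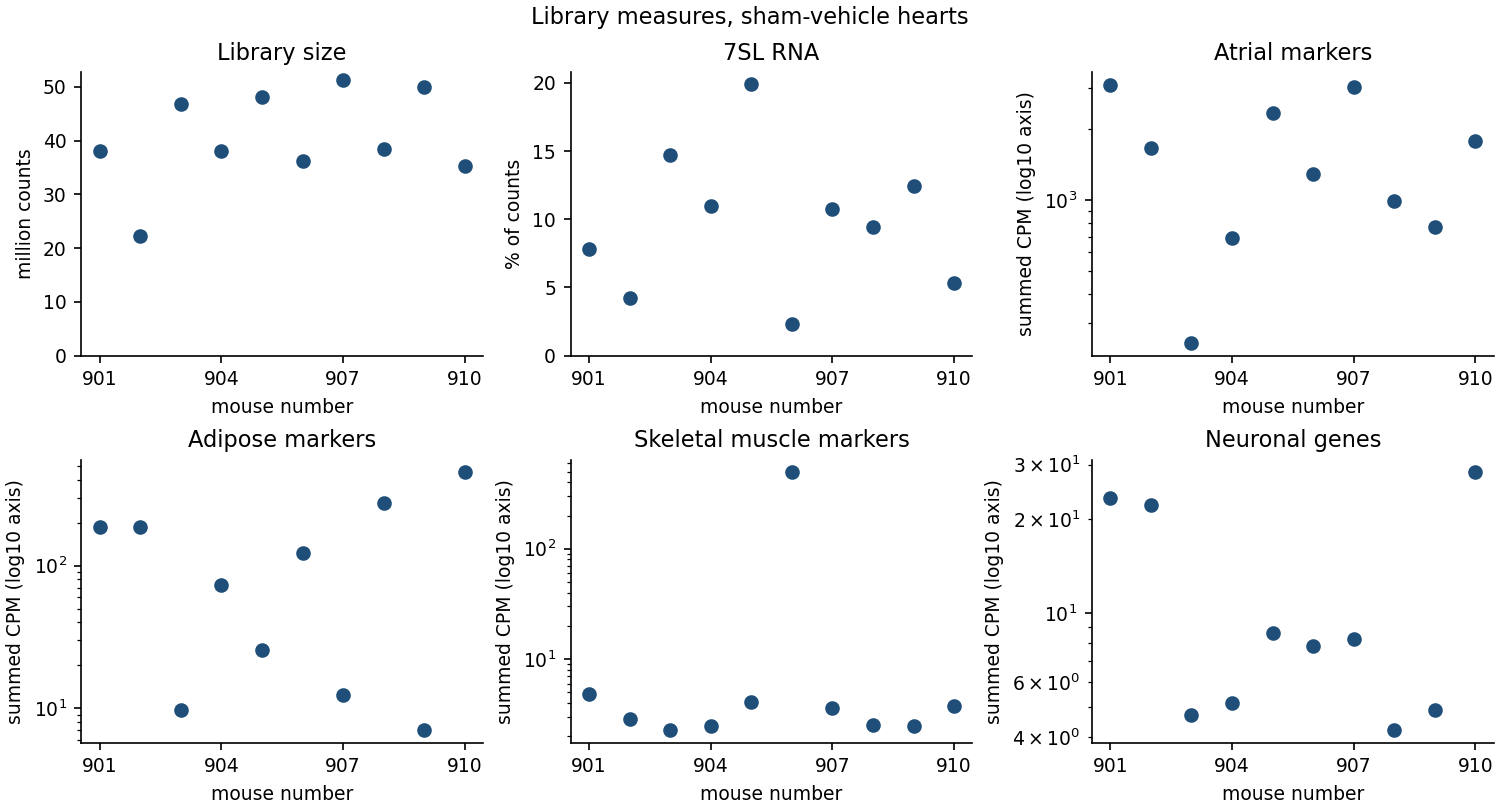
Plotted are 6 measures of the 10 sham-vehicle libraries against mouse number: library size in M counts, 7SL RNA in percent of counts, and summed CPM of atrial, adipose, skeletal muscle and neuronal genes on log10 axes. Each point is 1 heart; mouse 906 stands alone in skeletal muscle markers (491.5 CPM), and mice 901, 902 and 910 have the highest neuronal sums.

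In these hearts Arntl fell with mouse number, and Dbp, Tef and the unnamed transcript RP23-8D10.2 rose with it. They were the only 4 of 23603 genes tested that passed (0.0169%; adjusted p under 0.05, edgeR quasi-likelihood test with Benjamini-Hochberg adjustment), 3 of them higher (0.0127%) and 1 lower (0.00424%). Dbp, Tef and Arntl had been put forward as clock-phase markers with earlier results of these data known. The slopes below are changes in log2 level per mouse number, with the standard error (SE).

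Arntl encodes the activator at the core of the clock (chr7:113207465-113314126, + strand). Its CPM from mouse 901 to mouse 910 was 27.0, 24.8, 15.8, 17.4, 10.8, 15.5, 9.213, 6.596, 3.682 and 4.522. The earliest pair of mice had the highest levels and the latest pair the lowest, with reversals at mice 904, 906 and 910, the largest at mouse 906. The mean was 19.2 ± 6.66 in mice 901 to 905 and 7.90 ± 4.75 in mice 906 to 910 (SD, n = 5 each), and these sets overlapped. Like Tef, Arntl overlaps an annotated antisense gene. The slope was -0.307 (SE 0.0357, edgeR adjusted p = 0.0389), which over the 9 steps is a fitted 6.79-fold lower level. Without mouse 906 it alone of all genes passed (edgeR adjusted p = 0.00607).

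Dbp encodes a PAR bZIP activator whose transcript follows the clock with a large amplitude (chr7:45705088-45710203, + strand). Its CPM ran 26.9, 23.0, 35.2, 28.5, 38.1, 58.1, 61.9, 75.7, 95.9 and 74.4 from mouse 901 to 910. All of the first 5 mice were below all of the last 5 (means 30.3 ± 6.18 and 73.2 ± 14.8, SD, n = 5 each). Of all genes tested, 0.314% (74 genes) showed no such overlap in either direction. The slope was 0.223 (SE 0.0283, edgeR adjusted p = 0.0471), a fitted 4.02-fold higher level in mouse 910 than in mouse 901. Dbp overlaps Sphk2 on the opposite strand. Strand use in counting is not given in the sources used here; Sphk2 itself had a slope of 0.0606 (unadjusted p = 0.0648).

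Tef encodes a related PAR bZIP factor (chr15:81802421-81826863, + strand). Its CPM ran 60.4, 62.8, 77.9, 71.9, 82.6 and 92.1 in mice 901 to 906 and 135.5, 179.9 and 150.7 in mice 908 to 910, with mouse 907 between mice 906 and 908. As for Dbp, the first 5 mice (71.1 ± 9.52) were all below the last 5 (131.8 ± 36.1; SD, n = 5 each), and mouse 909 was the highest. The slope was 0.170 (SE 0.0231, edgeR adjusted p = 0.0485), a fitted 2.88-fold difference. As single values, the log2 levels of the 3 genes gave Pearson's r = 0.941 for Dbp, 0.954 for Tef and -0.950 for Arntl, with Spearman's rho of 0.939, 0.976 and -0.964 (n = 10; permutation p adjusted over 24 relations at most 0.00144 for each). Without the 2 end mice, 901 and 910, r was 0.968, 0.945 and -0.921 (n = 8). The 3 genes were put forward with earlier results of these data known, and the 24 relations leave out all other genes tested. The correlations therefore describe these genes and are not independent evidence.

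RP23-8D10.2 is an unconfirmed transcript (chr8:93190328-93191358, - strand) that lies within the carboxylesterase gene Ces1d on the same strand, so reads of the 2 could be shared. Its levels were low, from a minimum of 26 counts, at 0.697, 0.962, 0.982, 1.561, 1.629, 1.469, 2.693, 2.913, 2.304 and 5.327 CPM. The slope was 0.279 (SE 0.0371, edgeR adjusted p = 0.0485), a fitted 5.70-fold difference, and the values of mice 901 to 905 and 906 to 910 overlapped. Ces1d had a slope of 0.141 that did not pass (unadjusted p = 0.00297).

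**Figure D2:**
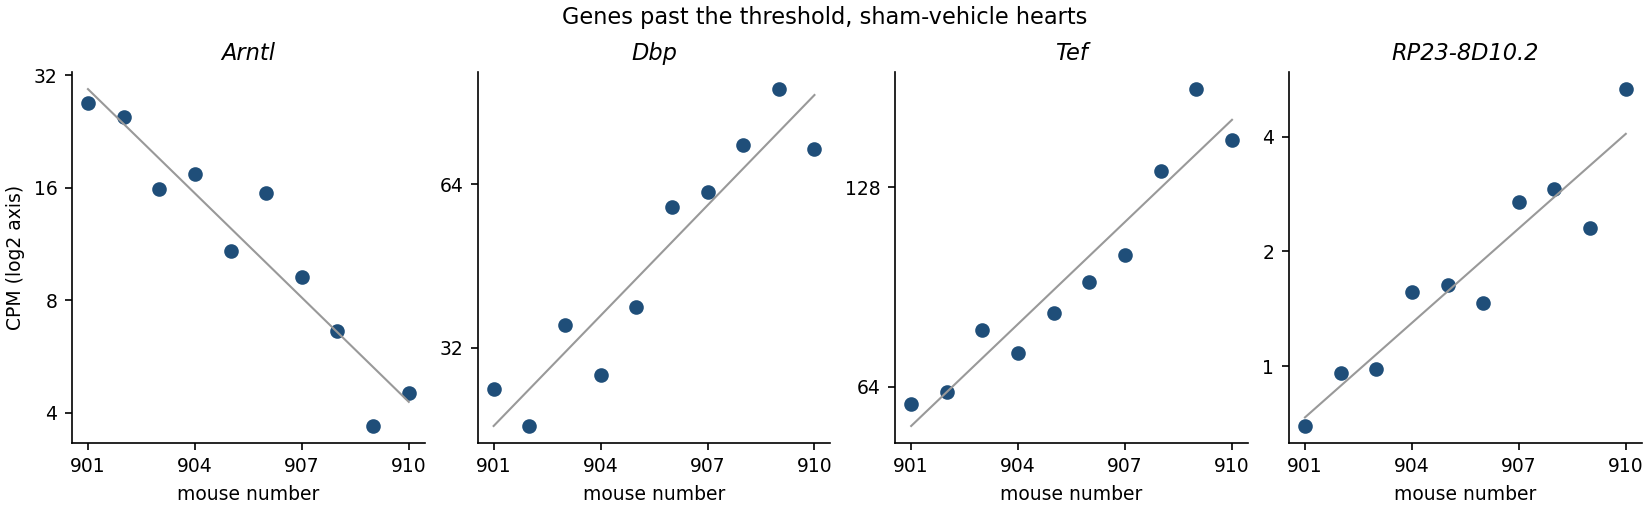
CPM (log2 axis) of Arntl, Dbp, Tef and RP23-8D10.2 against mouse number in the 10 sham-vehicle hearts; each point is 1 heart and the line is a least-squares line through log2 CPM. Arntl goes from 27.0 CPM in mouse 901 to 4.522 in mouse 910, and Dbp from 26.9 to 74.4.

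These 4 calls were close to the threshold. Without mouse 906 Dbp had a slope of 0.222 (edgeR adjusted p = 0.0743), Tef 0.170 (adjusted p = 0.101) and RP23-8D10.2 0.281 (adjusted p = 0.0743). Leaving out any 1 mouse left 0 calls, or 1 without mouse 906, while the slopes changed little: Arntl stayed between -0.318 and -0.278 when each mouse was left out in turn. Just outside the threshold were Mthfd1l, a mitochondrial folate enzyme, with a slope of 0.248, and Fam124b, with a slope of -0.306, both at an edgeR adjusted p of 0.05002. Mthfd1l was at 1.646 to 3.231 CPM in mice 901 to 905 and at 3.026 to 8.502 in mice 906 to 910. Fam124b was at 1.839 to 3.614 and 0.583 to 1.669, respectively, without overlap.

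Across all genes few were related to the number: 365 had an unadjusted p under 0.05 (1.55%), fewer than the 1180 that a uniform spread of p-values would give, 201 of them higher (0.852%) and 164 lower (0.695%). The count was 223 (0.947%) without mouse 909. Without mouse 910 it was 753 (3.24%) and the balance of directions turned, with 271 higher and 482 lower. Of the 19 clock genes, 3 passed and 15 had an unadjusted p under 0.05, 11 with and 4 against the number. Clock genes were 11 of the 20 genes with the smallest p. Their median absolute slope was 0.140 on the log2 scale, against 0.0227 over all genes. Without each mouse in turn, the count of 15 was 14 to 15; it was 15 without mouse 906. The 4 genes that ran against the number were Arntl, Clock, Npas2 and Nfil3. Since the lists were chosen with the clock pattern of these samples known, the counts describe them and are not independent evidence.

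Among the partners of ARNTL, Npas2 was at 10.6 and 11.3 CPM in mice 901 and 902, at 3.073 in mouse 905, and at 3.231 to 6.720 in mice 906 to 910 (slope -0.181, SE 0.0413, unadjusted p = 0.000867). Clock itself was at 63.6 to 74.7 CPM in mice 901 to 905 and 45.5 to 67.1 in mice 906 to 910 (slope -0.0776, SE 0.0228). Clock thus spanned a much narrower range than Arntl or Npas2. Rora (0.0077, unadjusted p = 0.733) and Rorb (-0.0289, p = 0.690), which encode ROR receptors, had slopes smaller than their SE, and both signs reversed without mouse 910.

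All 10 repressors had positive slopes, 8 with an unadjusted p under 0.05 and none past the adjusted threshold (edgeR). Ciart, which encodes a repressor of the CLOCK and ARNTL pair, was steepest at 0.312 (SE 0.0495, edgeR adjusted p = 0.125). It was at 2.311 CPM in mouse 901 and at 4.737 to 7.075 in mice 902 to 907. In mice 908 to 910 it was at 15.0, 26.9 and 15.9 CPM. Per2 followed with 0.293 (SE 0.0553, edgeR adjusted p = 0.357), from 12.3 CPM in mouse 901 through 28.1 to 49.4 in mice 902 to 907, then 70.4, 163.4 and 109.8. Per3 was at 35.8 to 49.6 CPM in mice 901 to 905 and at 68.3 to 163.1 in mice 906 to 910, with no overlap (slope 0.227, edgeR adjusted p = 0.158). Ciart and Per2 were thus lowest in mouse 901 and higher in each of mice 908 to 910 than in any earlier mouse, and Per3 was higher from mouse 906 on. Per3 lies within Camta1 on the same strand, which had a slope of 0.0163.

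Per1 was the least regular of the Per genes, at 37.2 CPM in mouse 901 and 46.1 in mouse 906 but at 92.3 to 245.5 in the other 8 (slope 0.140, SE 0.0622, unadjusted p = 0.0441). Cry2 was at 20.2 to 24.01 CPM in mice 901 to 905 and 28.4 to 36.0 in mice 906 to 910, without overlap (slope 0.087). Cry1 had a slope of 0.0371 (SE 0.0381) and no order. The REV-ERB genes Nr1d1 and Nr1d2 had slopes of 0.0829 and 0.137. Nr1d1 separated the first 5 mice (84.5 to 114.7 CPM) from the last 5 (133.6 to 172.6 CPM), whereas Nr1d2 did not. Thra, which overlaps the end of Nr1d1 on the opposite strand, had a slope of -0.0311. Bhlhe41, an E-box repressor, likewise separated them (9.613 to 12.2 CPM and 14.5 to 19.6; slope 0.108), and its relative Bhlhe40 did not (slope 0.0509, unadjusted p = 0.108).

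Of the output factors, Hlf had a slope of 0.144 (SE 0.0269, edgeR adjusted p = 0.357), from 15.0 to 25.8 CPM in mice 901 to 905 and 20.9 to 42.4 in mice 906 to 910. The repressor of the same sites, Nfil3, ran the other way, from 4.255 to 5.591 CPM in mice 901 to 905 to 2.013 to 3.869 in mice 906 to 910, without overlap (slope -0.160, SE 0.0341, unadjusted p = 0.000511). In all, 7 of the 19 clock genes did not overlap between the first and the last 5 mice, beside the 0.314% of all genes given above. All 7 were among the 15 with an unadjusted p under 0.05, which were picked by slope from the same values. The count describes these genes and is not independent evidence.

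The order of the hearts by clock genes was not exactly the order of their numbers. Mouse 909 held the late extreme (the highest level of a gene with a positive slope, the lowest of one with a negative slope) in 11 of the 15 genes and mouse 910 in 1. In 13 of the 15 genes mouse 909 lay further along than mouse 910. The early extreme was in mouse 901 for 6 genes, in mouse 904 for 4 and in mouse 902 for 3. Library 909 also had the highest mitochondrial share (28.11%), whose part in these values was not tested, and a 7SL share of 12.45%. With the log2 7SL share as a covariate the slopes of Arntl, Dbp and Tef were -0.309, 0.223 and 0.169, and 16 of the 19 clock genes had an unadjusted p under 0.05.

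**Figure D3:**
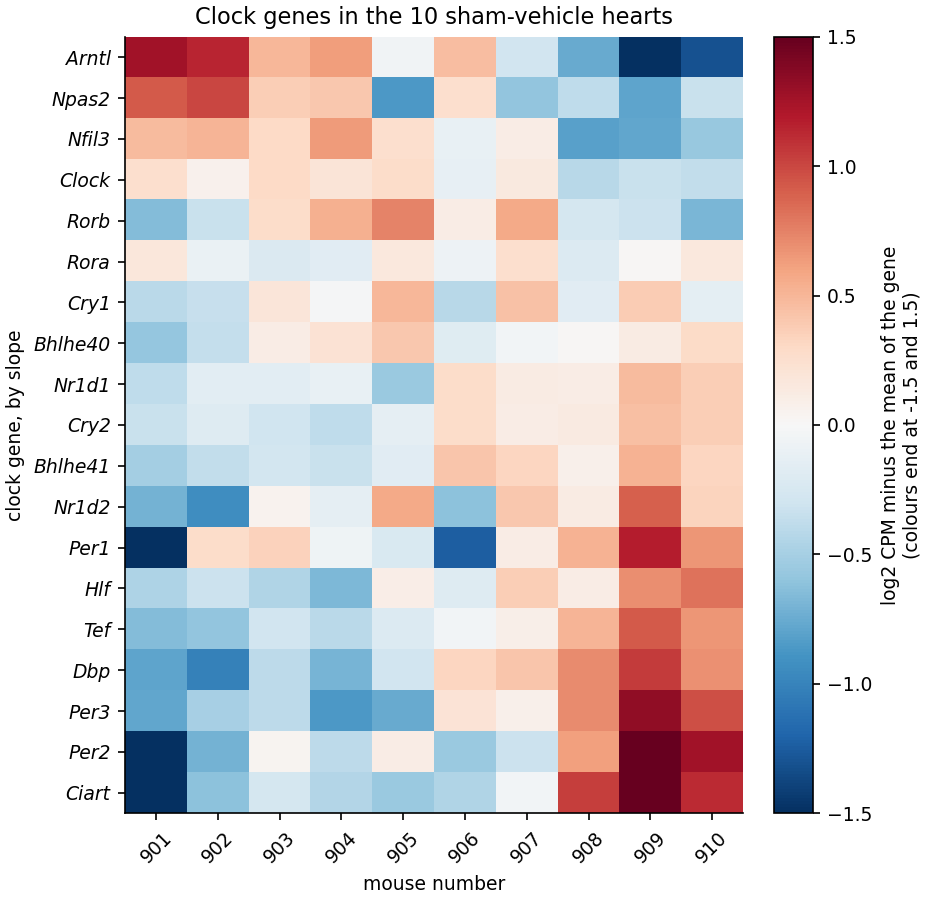
Log2 CPM of the 19 clock genes in the 10 sham-vehicle hearts, each gene minus its own mean, with genes sorted by slope and mice by number; red is above and blue below the mean, and colours end at -1.5 and 1.5. Arntl, Npas2, Nfil3 and Clock turn from red to blue with rising number, and Ciart, Per2, Per3, Dbp and Tef from blue to red. Mouse 909 holds the late extreme of 11 of the 15 genes with an unadjusted p under 0.05.

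The same relation was measured in the 18 hearts of the other groups, which share no library with the 10, as a common slope within groups. No gene of 24432 passed there (edgeR; 1309, or 5.36%, had an unadjusted p under 0.05; DESeq2 called 14 and limma voom 1). All 19 clock genes had the same sign of slope as in the sham-vehicle hearts, and 12 had an unadjusted p under 0.05, each of them also among the 15. The slopes were smaller in 17 of the 19, with a median absolute slope of 0.0754 against 0.0393 over all genes. Tef had 0.139 (unadjusted p = 0.000193), Ciart 0.219 (p = 0.000278), Per2 0.218 (p = 0.00205), Dbp 0.139 (p = 0.00598) and Arntl -0.117 (p = 0.00797). RP23-8D10.2 had 0.140 (p = 0.0449). All of these are from the edgeR fit over all genes. Sham-Oxf mouse 921 stood apart in these libraries, with 15879 detected genes against 27128 to 33995 in the other 17. Without it no gene passed (edgeR; 935 with an unadjusted p under 0.05), and the 4 genes that passed in the sham-vehicle hearts had the same sign, each with an unadjusted p under 0.05.

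Levels and slopes are given next for each of the other groups. Whether slopes differ between these 3 groups was not tested, and the sham-Oxf slopes include mouse 921. In CKD-vehicle mice 913, 914, 916, 918, 919 and 920 Dbp was at 8.095, 8.518, 15.7, 25.9, 43.8 and 30.6 CPM, on a scale normalised over all 28 libraries. In sham-Oxf mice 921, 923, 925, 927 and 929 it was at 61.6, 94.6, 129.1, 104.1 and 105.1 CPM. In CKD-Oxf mice 931 to 940 it was between 76.2 and 128 CPM. Dbp was thus lowest at the start of the CKD-vehicle set, below every sham-vehicle heart, and differed little within CKD-Oxf. The slope of Dbp within a single group was 0.0103 for CKD-Oxf (unadjusted p = 0.820), 0.0784 for sham-Oxf (p = 0.157) and 0.353 for CKD-vehicle (p = 5.42e-05), from edgeR fits over all genes. In the same order Tef had 0.0486 (p = 0.329), 0.182 (p = 0.00541) and 0.197 (p = 0.00118). Arntl had -0.0997 (p = 0.185), -0.142 (p = 0.281) and -0.131 (p = 0.00239). Arntl was at 3.209 to 15.4 CPM among the CKD-Oxf hearts, at 1.574 to 4.948 among sham-Oxf and at 18.98 to 37.5 among CKD-vehicle. The 4 genes that passed in the sham-vehicle hearts had the same sign in each of the 3 groups taken alone, and none passed there (edgeR). An unadjusted p under 0.05 was reached by 0 of them within CKD-Oxf, by 1 (Tef) within sham-Oxf and by all 4 within CKD-vehicle. Groups occupy separate blocks of mouse numbers, so a clock gene's level between groups and the number of the mice cannot be told apart.

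**Figure D4:**
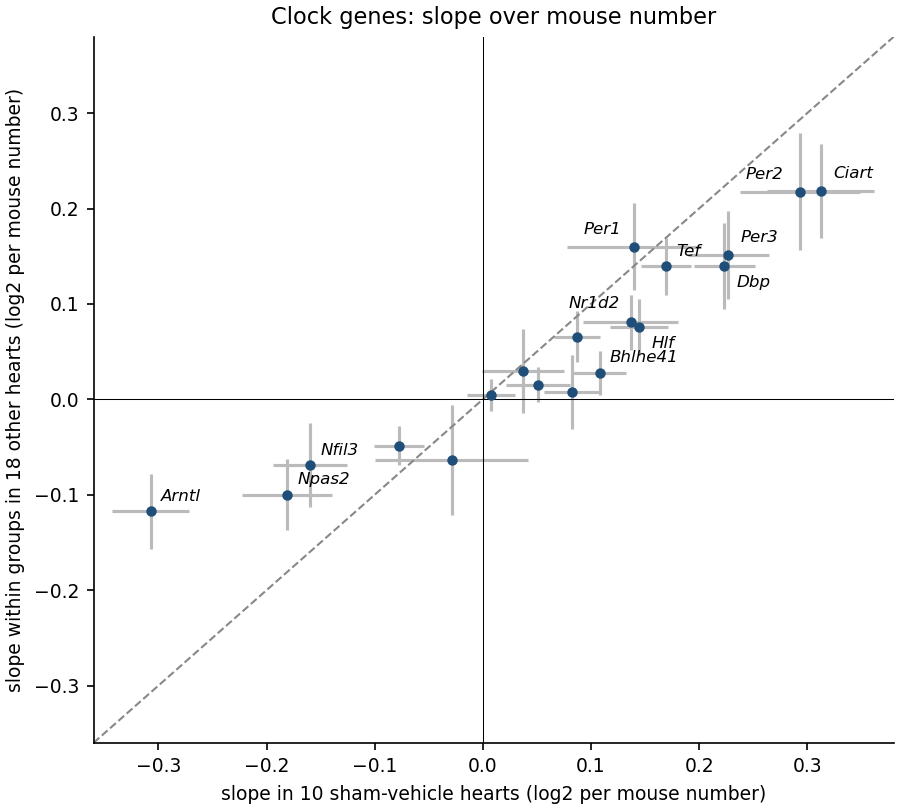
Slope of each of the 19 clock genes over mouse number (log2 per number) in the 10 sham-vehicle hearts (x axis) against the common within-group slope in the 18 other hearts (y axis), with bars of 1 SE and a dashed line of equal slopes. All 19 genes have the same sign in both, and 17 have the smaller absolute slope in the other hearts.

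Beyond the clock genes, the 200 genes with the smallest p in sham-vehicle hearts shared their sign with the other hearts in 159 of 198 tested (80.3%), against 57.44% of all genes. With the clock genes left out, the share was 145 of 184 (78.8%). These shares include sham-Oxf mouse 921 and were not repeated without it. Of all slopes in the other hearts 61.18% were positive, and 52.09% without mouse 921. Genes can vary together, so the shares do not count independent cases. The difference between the slopes was tested over all 28 libraries. No gene of 25380 passed (edgeR; 327, or 1.29%, with an unadjusted p under 0.05; DESeq2 called 1, Myh4, a skeletal muscle myosin, and limma voom 0). Myh4 was at 101.4 CPM in mouse 906 against a median of 0.108 in the sham-vehicle hearts. In CKD-vehicle mouse 913 the skeletal muscle markers summed to 595.8 CPM, against 1.846 to 24.07 in the rest of the other hearts. The part of these 2 hearts in the Myh4 call was not tested. Arntl differed by -0.187 (SE 0.0619, unadjusted p = 0.00537) and Bhlhe41 by 0.0819 (p = 0.0228), whereas Dbp differed by 0.0857 (p = 0.169) and Tef by 0.0321 (p = 0.444). No clock gene was therefore shown to run differently with number in the sham-vehicle hearts. Hist1h1e, a linker histone gene that overlaps Hist1h2be on the same strand, had the smallest p both in the other hearts (slope -0.2004, edgeR adjusted p = 0.274) and for the difference (0.191, unadjusted p = 0.00102). In the sham-vehicle hearts its slope was -0.0116.

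None of the genes on the other lists passed the adjusted threshold (edgeR), so what follows is given as values beside the 1.55% of all genes with an unadjusted p under 0.05. The extracellular matrix list had negative slopes in 11 of 12 genes, with a median of -0.0817 against -0.0034 over all genes, of which 54.25% were negative. Lox, which cross-links collagen (-0.137, unadjusted p = 0.0134), and Col4a1, a basement membrane collagen (-0.0995, p = 0.0317), were the 2 under 0.05. Col1a1, the main fibrillar collagen, was at 165.3 and 136.4 CPM in mice 901 and 902, at 31.5 in mouse 909 and at 60.2 to 126.2 in the other 7 (slope -0.105, p = 0.0706). Of the 12 genes, 9 were highest in mouse 901 and 8 lowest in mouse 909. Without mouse 901 the median was -0.0381, and without mouse 909 it was -0.0548. The 2 genes under 0.05 became 1 without mouse 901, 904 or 909, 3 without mouse 902, 903 or 905, 4 without mouse 907 and 7 without mouse 910. The fibroblast markers, of which Col1a1 is also on the matrix list, had negative slopes in 5 of 5, none under 0.05 (summed CPM 325.6 to 630.3 in mice 901 to 905 and 218.4 to 585.2 in mice 906 to 910). The mural markers were negative in 6 of 6, 1 of them under 0.05 (Tagln, -0.0960, p = 0.0350), at a summed 633.9 to 1093 and 525.9 to 785.3 CPM. The part of both in the matrix values was not tested. In tissue, fewer cells of a type and less RNA per cell cannot be told apart. In the other 18 hearts 9 of the 12 matrix genes had negative slopes, with a median of -0.0178.

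Macrophage markers were negative in 7 of 7, led by the Fc receptor Fcgr1 (slope -0.192, unadjusted p = 0.00176), whose slope in the other hearts was -0.0012 (p = 0.989). Its level was low, at 0.483 to 1.211 CPM in mice 901 to 905 and 0.260 to 0.705 in mice 906 to 910. Csf1r, the growth factor receptor of macrophages, had a slope of -0.0301 (p = 0.277). Liver markers were positive in 6 of 6 with none under 0.05, at a summed 0.705 to 25.8 CPM.

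On the list of insulin, FoxO and nutrient signalling, 12 of 15 genes had positive slopes and 3 had an unadjusted p under 0.05. Arrdc2, an arrestin-domain gene, was at 4.990 to 11.5 CPM in 8 mice and at 27.6 and 13.3 in mice 909 and 910 (slope 0.174, p = 0.00842; 0.206 in the other hearts, p = 0.000121). Pik3ip1, an inhibitor of PI3-kinase, had 0.0718 (p = 0.0194) and the stress gene Sesn1 0.0901 (p = 0.0460). The count of 3 was 1 to 3 when each mouse was left out. Klf15, a clock-regulated factor of cardiac metabolism, was at 18.2 CPM in mouse 901 and 45.8 in mouse 909 (slope 0.0897, p = 0.0224). Its rise was not steady, with 41.6 CPM in mouse 905 and 21.45 in mouse 906, and mice 901 to 905 overlapped with mice 906 to 910. None of the other 10 genes listed with Klf15, those of branched-chain amino acid catabolism, was under 0.05. The potassium channel subunit Kcnip2 was at 11.6 and 15.9 CPM in mice 901 and 902 and at 21.5 to 42.6 in the other 8 (slope 0.133, p = 0.00474), the only one of 12 ventricular ion channel genes under 0.05. The kinase gene Wee1, a clock output in other tissues, ran from 3.596 CPM in mouse 901 to 13.9 in mouse 909 (slope 0.158, p = 0.00452). Among the 10 cell cycle genes it was joined under 0.05 only by Cdc20, a mitotic gene at 0.676 to 1.517 CPM, with the opposite sign (-0.0916, p = 0.0402).

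On the glucocorticoid list, Per1 and Fkbp5 (0.0903, p = 0.0288) were the 2 of 13 under 0.05. Mouse 906 was lowest for Fkbp5 (12.7 CPM, highest 34.1 in mouse 910), for Tsc22d3 (26.8, median 66.2) and for Zbtb16 (45.9, median 147.8). On the heat shock and cold-inducible list no gene of 12 was under 0.05, although 11 slopes were negative (9 of 12 with DESeq2 size factors). There 10 of 12 genes were highest in mouse 905, among them Hspa1a at 112.7 CPM against a median of 14.3. No gene was under 0.05 among 20 of fatty acid oxidation, 18 immediate-early, 9 natriuretic and stretch, and 8 of NAD synthesis and sirtuins. Nppa, the atrial natriuretic peptide gene, ranged from 99.1 to 1236 CPM with a slope smaller than its SE (-0.0778, SE 0.0883), beside the differences in atrial markers given above.

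**Figure D5:**
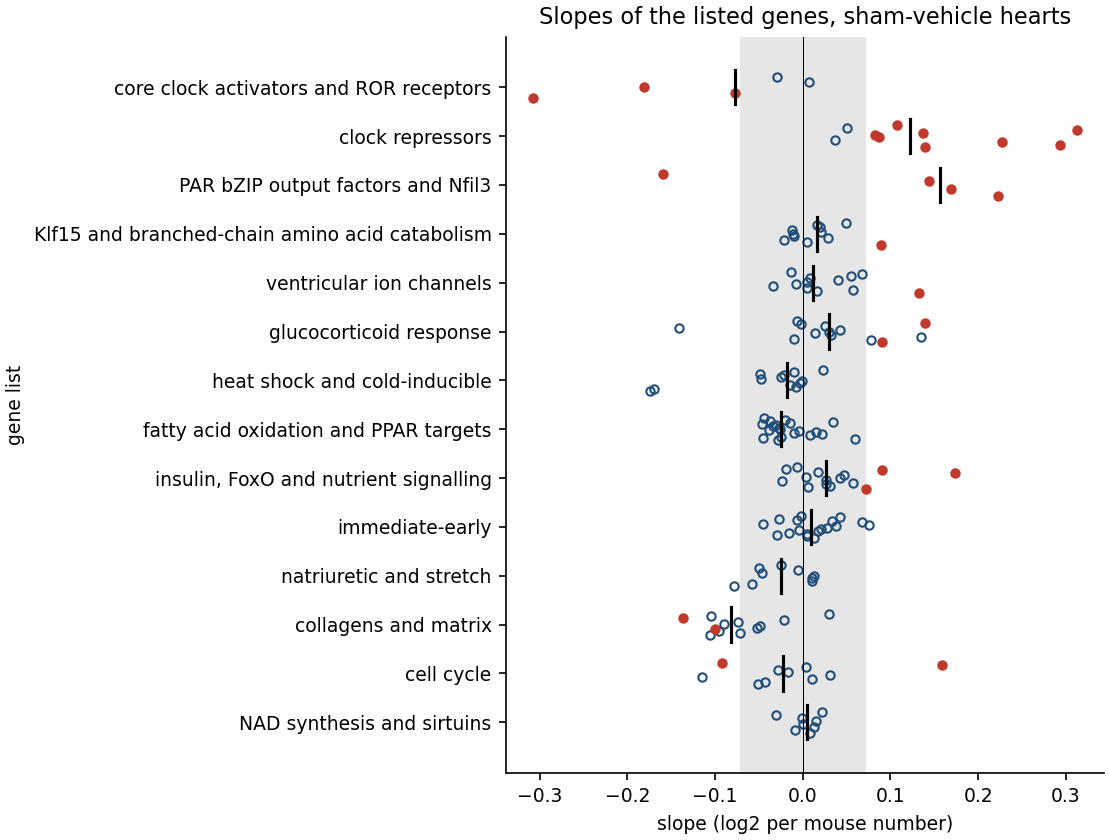
Slope over mouse number (log2 per number) of each tested gene on 14 lists in the 10 sham-vehicle hearts; filled red points have an unadjusted p under 0.05, open points do not, black bars are list medians, and the grey band runs from the 5th to the 95th percentile of all genes (-0.071 to 0.072). Clock lists reach from -0.307 to 0.312, and most genes on the other lists lie inside the band.

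Levels that turn within the order, which a slope misses, were tested with a squared term. No gene of 24594 passed (edgeR; 2747, or 11.2%, with an unadjusted p under 0.05; DESeq2 called 159 and limma voom 412). A uniform spread of p-values would give 1230 under 0.05. The 2747 became 1237 (5.145%) without mouse 901, 1830 (7.457%) without mouse 905 and 5323 (21.97%) without mouse 906, with no gene past the adjusted threshold in any of the 3 (edgeR). Scn9a, a sodium channel of peripheral neurons, had the smallest p (edgeR adjusted p = 0.294). It was at 1.761, 1.813 and 1.949 CPM in mice 901, 902 and 910 and at 0.0263 to 0.111 CPM in the other 7. Rorb, at 0.338 to 0.998 CPM and highest in mouse 905, was the 1 clock gene that had an unadjusted p under 0.05 for the squared term (p = 0.00246). No turn was detected for Dbp (p = 0.982), Tef (p = 0.305) or Arntl (p = 0.284).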

How the data were processed

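Gene counts of 28 ventricular libraries were used as the authors deposited them, 1 table of whole-number counts. Per the submitters' processing notes the build was mm10 and the tools were FastQC 0.11.7, MultiQC 1.9, STAR 2.6.1d, Subread and featureCounts 1.6.3; annotation release, strand and multi-mapping settings are not given in the sources used here. No column lacked a sample. The table has 45513 gene rows. Positions and overlaps came from GENCODE M21 (GRCm38, which is mm10; 45465 identifiers matched), promoters from RefSeq.

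Counts of the 10 sham-vehicle libraries were filtered with filterByExpr (minimum count 10), TMM-normalised and fitted in R 4.3.3 with edgeR 4.0.16 (robust quasi-likelihood, slope per mouse number, Benjamini-Hochberg threshold 0.05). CPM are TMM-scaled, and log2 CPM use a prior count of 2. SE is the absolute slope divided by the root of F. The other 18 libraries were fitted with group means and a common slope, and the difference over all 28. Alternatives used DESeq2 1.42.0 and limma 3.58.1. The method was tested on simulated data, with counts drawn independently for each gene and library. The outcome is not reported here and is not used as evidence. Each library is a separate mouse. Members and lists were chosen with earlier results of these data known; Nampt and Retnlg had no row, and 1 clock gene is not reported here and was left out of the counts over lists.

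Genes were named as follows: all that passed, Dbp, Tef and Arntl, and the smallest p for curvature, the other libraries and the difference. Mthfd1l, Fam124b, Ces1d, Sphk2, Myh4 and list genes with an unadjusted p under 0.05 or singled out by level were chosen after their values were seen.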

Additional observations from a re-analysis of the deposited data

Results flagged for a closer look

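The summed CPM of the skeletal muscle markers was 491.5 in mouse 906, against a next highest value of 4.803 and a median of 3.223 over the 10 sham-vehicle hearts. The gap to the nearest heart was 0.995 of the whole range, above the 95% Dixon limit for 10 samples. It was the 1 sample far from the others among 45 measures compared, where chance gives about 2.25. The signal came from fast skeletal myosins: Myh1 was at 204.9 CPM in mouse 906 against a median of 0.358, Myh4 at 101.4 against 0.108 and Myh2 at 99.9 against 0.0479. Tnnt3, fast troponin T, was at 43.8 against 0.785. Acta1, skeletal actin, was also highest there, at 150.7 CPM. The same library had the lowest 7SL share, 2.295% of counts. Without that heart Arntl passed, 0 other genes passed, and 15 clock genes had an unadjusted p under 0.05 (edgeR). Leaving out any other mouse left 0 calls. The part of the skeletal muscle signal itself in the slopes was not tested.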

How the results depend on the processing

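The count of 4 genes became 17 with DESeq2 and 8 without a filter on low counts; in both all 4 were among them. It was 0 with upper quartile scaling, with all 28 libraries in the fit, with mice 902 to 909 only, with mice 906 to 910 against 901 to 905 and with library size as a covariate, and 0 to 1 when each mouse was left out. It was 6 with limma voom, with DESeq2 size factors and with at least 10 counts in every library (4 higher and 2 lower in each), 5 with limma-trend (3 higher, 2 lower) and 4 with the 7SL share as a covariate. Under the 21 alternatives that give a slope per number Arntl passed in 8, and Dbp, Tef and RP23-8D10.2 in 7 each; none passed for mice 906 to 910 against 901 to 905. The 365 genes with an unadjusted p under 0.05 became 205 with all 28 libraries in the fit, 606 with the 7SL share, 784 with limma voom, 790 with library size, and 2356 without a filter, where a uniform spread gives 2040. Of 418 clock gene values under alternatives 416 kept their direction; without mouse 910 Rora reversed to -0.0021 and Rorb to 0.0261, within ranges of -0.0021 to 0.0275 and -0.0999 to 0.0261 when each mouse was left out. Curvature calls numbered 159 with DESeq2 and 412 with limma voom, against 0; those in the other 18 libraries 14 and 1, against 0; and those for the difference of slopes 1 with DESeq2, against 0. The cause of these differences was not tested. The matrix list had 7 of 12 genes with an unadjusted p under 0.05 without mouse 910, against 2. No paired analysis was possible because the groups share no mouse number. Low transcripts such as RP23-8D10.2 rest on as few as 26 counts, and intervals were not given for single libraries.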

Other observations

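Neuronal genes split the hearts in a way that no slope shows. Scn9a and Nefl, a neurofilament gene, were both near 2 CPM in mice 901, 902 and 910 (Nefl 2.073, 2.331 and 2.495), and Nefl was at 0 to 0.0668 CPM in the other 7. A list of 8 neuronal genes (Prph, Uchl1, Nefl, Nefm, Tubb3, Th, Dbh and Chat), written after these values were seen, summed to 23.5, 22.3 and 28.3 CPM in the same 3 mice and to 4.213 to 8.622 in the others. The Schwann and glial markers were also highest there, at 20.5, 18.2 and 17.3 CPM against 9.592 to 14.3. Adipose markers were at 187.8, 187 and 450.6 CPM in those 3 hearts, but at 273.1 in mouse 908 and 123.4 in mouse 906 without the neuronal genes. Acta1 ran the other way, at 17.4, 18.7 and 19.3 CPM in mice 901, 902 and 910 and at 24.3 to 150.7 in the others.

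Among well-expressed genes, 5 of the 8 steepest were clock genes. Of 23603 genes, 133 had an absolute slope of at least 0.2, and 8 of these had a mean of at least 1 log2 CPM. They were Arntl, Dbp, Ciart, Per2, Per3, Mthfd1l, Alb and Atp2a1, and Alb (unadjusted p = 0.160) and Atp2a1 (p = 0.577) were the 2 with no relation to number at 0.05. Cipc, which encodes a CLOCK-interacting repressor and stood on no list, had a slope of 0.0831 (p = 0.00213; 0.0499 in the other hearts, p = 0.0367). Fbn1, the microfibril gene, was at 223.8 CPM in mouse 901 and at 103.9 to 162.8 in the others (slope -0.101, p = 0.000931), and the matrix proteases Adamts4 (-0.288, p = 0.000172) and Mmp14 (-0.122, p = 0.00455) had the same sign. These genes were chosen after their values were seen.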
